A study of Homo sapiens with 8 samples.

Results

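The comparison described here is the effect of epirubicin on gene expression taken over cells with and without LPS, which asks what the drug changed whether or not an inflammatory stimulus was given. It used all 8 of the 8 arrays of the series, 4 with epirubicin at 0.25 µg/mL and 4 without it, and LPS entered the model as an additive term. The arrays (Clariom S HT) were made from THP-1 cells, an established human monocytic leukaemia line, and all of them had received PMA (100 ng/mL), which turns these cells into macrophage-like cells. The 4 conditions, with 2 arrays each, were epirubicin for 24 h, untreated, epirubicin for 24 h and then LPS (100 ng/mL) for 3 h, and LPS alone for 3 h. The sources used here do not say that the 2 arrays of a condition came from separate cultures, so that p-values measure the spread between arrays, which may be technical. All values are the deposited log2 expression values of single probe sets, and the small number of arrays limits their precision. Array medians lay between 5.78 and 5.88, and those of 23 background probe sets between 3.91 and 4.10.

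Epirubicin is an anthracycline, a drug that slips between the base pairs of DNA, traps topoisomerase II on it and can displace histones from chromatin. Macrophages sense bacteria through surface receptors such as CD14 and the Toll-like receptors, take up antibody-coated particles through Fc receptors, and answer with cytokines and chemokines. LPS, a component of the outer membrane of Gram-negative bacteria, is recognised by TLR4 together with CD14 and sets off a wave of inflammatory transcription within hours. All 10 macrophage markers measured, among them CD68, LYZ and CSF1R, had condition means above 6, whereas all 5 epithelial, 4 of 5 fibroblast and 4 of 5 lymphocyte markers were below 6 in every condition. Of 6 markers of undifferentiated THP-1 cells and granules only 2 were below 6, and the highest mean level in that list was 14.26. The lymphocyte marker above 6 was CD79A, a subunit of the B cell receptor, with a difference of −0.66 (adjusted p = 0.247). It was the lowest of the 5 lymphocyte markers, of which 3 had positive and 2 negative values. MYB, a factor of immature blood cells, had −0.90 (adjusted p = 0.143). It was the lowest of the 6 markers of undifferentiated cells and granules, of which 3 had positive and 3 negative values. The summed level of the macrophage markers was 19.34 to 19.43 after epirubicin against 19.22 to 19.26 in untreated cells, and 19.28 to 19.31 after epirubicin with LPS against 19.18 to 19.19 after LPS alone (log2 of the summed linear values). The summed markers of undifferentiated cells and granules were 14.48 to 14.70 after epirubicin against 14.43 to 14.78 in untreated cells. With LPS they were 14.36 to 14.48 after epirubicin against 14.50 to 14.72 after LPS alone. The summed lymphocyte markers were 7.54 to 7.89 after epirubicin against 7.76 to 8.34 in untreated cells, and 8.42 to 8.64 after epirubicin with LPS against 9.13 to 9.46 after LPS alone. Their part in the results was not tested.

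Genes that fell with epirubicin outnumbered those that rose in the additive model over all 8 arrays. Of 20893 probe sets tested, 33 were higher (0.158%) and 61 lower (0.292%) with epirubicin at an adjusted p of at most 0.05, together 94 (0.45%), and 89 of them carry a gene symbol. Rises ranged from 0.96 to 2.31 on the log2 scale and falls reached −3.13, while the median over all probe sets was 0.00. As a description of genes chosen on these same arrays, for all 94 both epirubicin arrays lay on the same side of both arrays without epirubicin in each stratum (called separated arrays below). Over all probe sets this was so for 1358 towards higher (6.5%) and 1397 towards lower values (6.69%), and 2798 probe sets had an unadjusted p of at most 0.05. The study's own threshold, an unadjusted p of at most 0.01 with at least a 2-fold change, was met by 136 probe sets that were higher (0.651%) and 160 that were lower (0.766%), together 296 (1.42%), of which 206 had an adjusted p above 0.05. Below, rose and fell are said only of genes that passed an adjusted p of 0.05. Fewer cells and less RNA per cell cannot be told apart in such bulk samples, and every value is relative to the other genes of its array.

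The number of calls depended strongly on single arrays and on the variance model. Without epirubicin duplicate 1 or 2 there were 3 and 23 calls, without untreated duplicate 1 or 2 there were 5 and 13, without epirubicin-LPS duplicate 1 or 2 there were 15 and 32, and without LPS duplicate 1 or 2 there were 9 and 11. Without LPS duplicate 1 the balance turned, with 5 probe sets higher and 4 lower, and among probe sets with a condition mean of at least 6 there were 172 higher and 193 lower. PPP1R27, GNGT2 and FCMR were called whichever array was left out, whereas the other 91 lost their call without at least 1 array. All 94 kept their sign and an unadjusted p of at most 0.00109 in each of these 8 fits. With a prior variance that follows the expression level, 730 probe sets were called, 330 higher and 400 lower, and these included 93 of the 94. Leaving LPS out of the model left 2 calls. None of these fits could reverse a sign, because in all 94 the arrays were separated the same way in both strata.

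**Figure D1:**
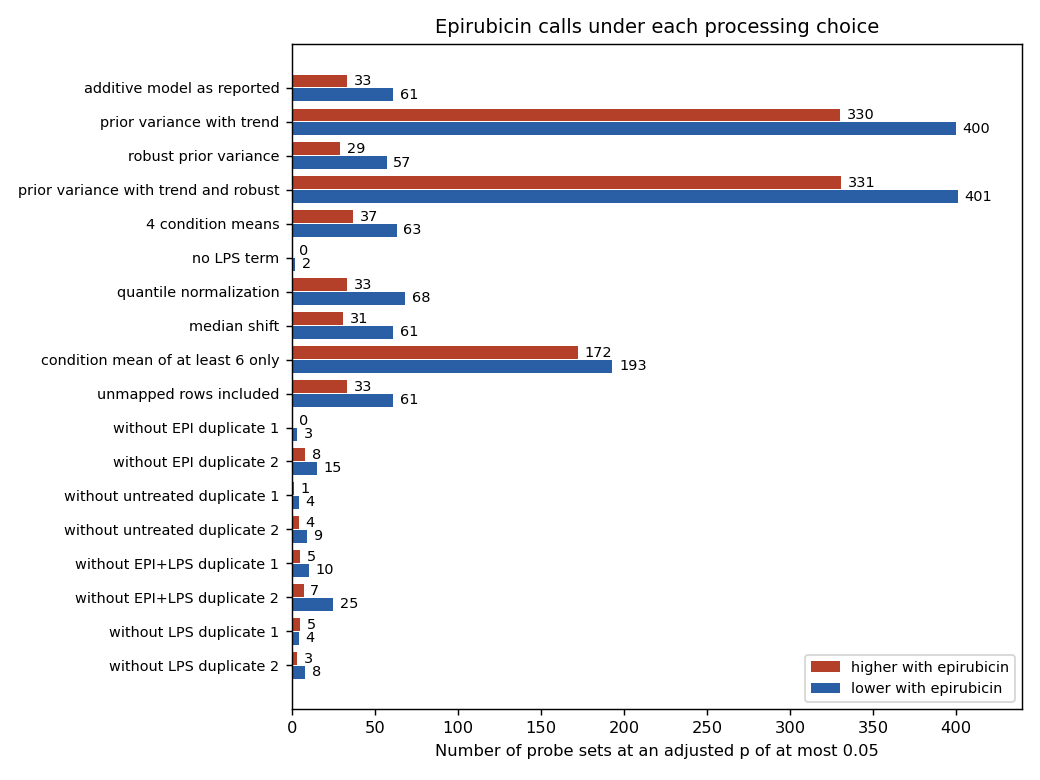
Bars count the probe sets that were higher and lower with epirubicin at an adjusted p of at most 0.05 under each processing choice, on a linear axis that starts at 0. The additive model gives 33 and 61, a prior variance with trend 330 and 400, and leaving out an array gives 0 to 8 and 3 to 25.

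**Figure D2:**
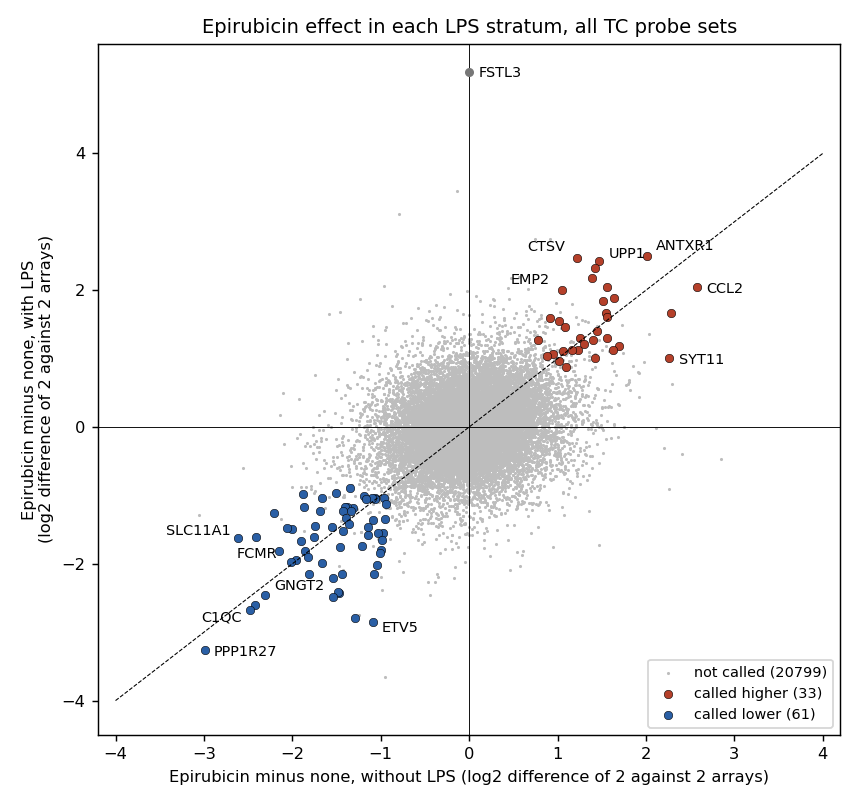
Each point is a probe set, with the log2 difference between epirubicin and no epirubicin in the absence of LPS on the horizontal axis and in the presence of LPS on the vertical axis. The 33 probe sets called higher lie in the upper right and the 61 called lower in the lower left, and FSTL3 stands apart at 5.19 with LPS and 0.00 without it.

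The gene that fell most was PPP1R27, which encodes a regulatory subunit of protein phosphatase 1 also known as dysferlin-interacting protein 1. Its log2 values were 8.55 and 8.15 with epirubicin against 11.20 and 11.47 without it in the absence of LPS, and 8.06 and 8.06 with epirubicin against 11.44 and 11.21 without it in the presence of LPS. The gap between the groups was far wider than that between duplicates, and neither stratum showed overlap. PPP1R27 fell by 3.13 (standard error 0.18, adjusted p = 0.000342 by limma), an 8.74-fold reduction, with −2.99 in the absence and −3.27 in the presence of LPS. DYSF, which encodes dysferlin itself, a membrane repair protein, fell as well, by 1.51 (standard error 0.18, adjusted p = 0.0171). GNGT2, the gamma subunit of the G protein of cone photoreceptors, fell by 2.38 (standard error 0.18, adjusted p = 0.00231). It measured 4.62 and 5.09 after epirubicin, 7.24 and 7.09 in untreated cells, 4.83 and 4.83 after epirubicin with LPS and 7.47 and 7.10 after LPS alone, and the epirubicin arrays lay below 5.93, the upper quartile of the background probe sets. FCMR, the Fc receptor for IgM, fell by 2.00 (standard error 0.17, adjusted p = 0.00421) and by nearly the same amount in both strata, −2.02 without LPS and −1.97 with it. Its values were 11.88 and 11.59 on the epirubicin arrays and 13.75 and 13.76 on the untreated arrays, and 10.55 and 10.27 after epirubicin and LPS and 12.53 and 12.23 after LPS alone. LPS itself lowered FCMR by 1.35 in the same model (adjusted p = 0.000395), and the arrays with both agents were the lowest.

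To set the largest fall and a few called genes of known regulation beside their promoters, the 250 bases before the annotated transcription start were taken from RefSeq (GRCh38.p14). PPP1R27 is shown as the gene that fell most, H1-4 and H1-3 as linker histone genes that fell together, PLK1 as the mitotic gene that fell, and ARRDC4 as a rise of known glucose-responsive control. Capitals mark the AP-1 type element TGANTCA, the TATA box TATAAA, the linker histone box AAACACA, the CCAAT box, the CHR element TTTGAA of cell cycle genes and the E-box CACGTG, on either strand and only those looked for in that gene. The windows are chr17:81835051-81835300 on the minus strand (PPP1R27), chr6:26156079-26156328 on the plus strand (H1-4), chr6:26234988-26235237 on the minus strand (H1-3), chr16:23678639-23678888 on the plus strand (PLK1) and chr15:97960453-97960702 on the plus strand (ARRDC4), each written 5′ to 3′ along its gene.
PPP1R27: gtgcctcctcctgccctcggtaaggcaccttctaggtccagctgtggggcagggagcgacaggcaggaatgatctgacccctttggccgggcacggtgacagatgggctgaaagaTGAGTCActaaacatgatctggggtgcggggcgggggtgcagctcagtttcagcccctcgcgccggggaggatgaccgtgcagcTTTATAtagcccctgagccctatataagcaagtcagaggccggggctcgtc
H1-4: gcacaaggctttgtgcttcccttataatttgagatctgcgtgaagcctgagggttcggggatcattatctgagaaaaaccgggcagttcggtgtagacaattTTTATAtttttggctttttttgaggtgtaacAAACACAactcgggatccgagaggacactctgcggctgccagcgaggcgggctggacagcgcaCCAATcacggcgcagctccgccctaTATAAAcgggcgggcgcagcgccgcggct
H1-3: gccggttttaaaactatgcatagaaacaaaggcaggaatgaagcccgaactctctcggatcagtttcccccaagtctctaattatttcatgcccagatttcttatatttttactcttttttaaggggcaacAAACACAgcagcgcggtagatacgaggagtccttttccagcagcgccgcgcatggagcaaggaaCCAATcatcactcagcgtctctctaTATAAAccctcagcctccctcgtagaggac
PLK1: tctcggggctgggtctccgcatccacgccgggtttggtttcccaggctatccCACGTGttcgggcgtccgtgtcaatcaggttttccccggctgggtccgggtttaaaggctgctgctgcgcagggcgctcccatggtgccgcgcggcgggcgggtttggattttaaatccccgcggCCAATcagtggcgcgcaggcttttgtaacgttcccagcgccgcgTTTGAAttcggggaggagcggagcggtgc
ARRDC4: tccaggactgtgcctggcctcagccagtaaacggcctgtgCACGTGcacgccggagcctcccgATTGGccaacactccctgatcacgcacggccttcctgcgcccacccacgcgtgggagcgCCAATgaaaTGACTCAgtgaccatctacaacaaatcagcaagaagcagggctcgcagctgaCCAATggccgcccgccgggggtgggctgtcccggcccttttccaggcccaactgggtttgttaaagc
The PPP1R27 window holds 1 AP-1 type element, which begins 135 bases before the start, and a TATAAA on the other strand at 51 bases. The windows of H1-4 and H1-3 hold the same 3 elements in the same order and at nearly the same distances, with AAACACA beginning 117 and 119, CCAAT 54 and 55, and TATAAA 29 and 30 bases before the start. H1-4 has a further TATAAA on the other strand. PLK1 has CACGTG at 198, CCAAT at 73 and TTTGAA at 29 bases, and ARRDC4 has CACGTG at 210 bases, 3 CCAAT boxes and 1 AP-1 type element. Of 14250 genes on the array with a promoter in the table, TGANTCA occurred in 5.07%, AAACACA in 3.64%, CCAAT in 34.6%, TATAAA in 8.99%, TTTGAA in 10.7% and CACGTG in 7.7%, counting both strands of these 250 bases. Among the 51 genes with a promoter that fell, TGANTCA occurred in 7 (13.7%), in PPP1R27, CD14, CD180, FCER2, MT2A, TM4SF19 and VAV3, and TATAAA in 9 (17.6%). Among the 22 with a promoter that rose, TGANTCA occurred in 1 and TATAAA in 2. The linker histone box occurred in 7.84% of these genes that fell and 9.09% of those that rose, as did the CHR element. For the CCAAT box the shares were 31.4% of the genes that fell and 36.4% of those that rose. For the E-box they were 9.8% and 4.55%. No test was run on any of these shares.

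Several receptors of the macrophage surface were among the genes that fell. Of 11 Fc receptor genes measured, 3 fell and none rose (0.292% and 0.158% of all probe sets), and the median over the list was −0.31 against 0.00 over all probe sets. Besides FCMR these were FCER2, the low-affinity IgE receptor CD23, which fell by 1.79 (standard error 0.22, adjusted p = 0.0171), and FCGR1A, the high-affinity IgG receptor CD64, which fell by 1.33 (standard error 0.18, adjusted p = 0.0206). FCER2 measured 10.01 and 9.69 with epirubicin against 12.09 and 11.41 without it in the absence of LPS, and 10.01 and 10.12 with epirubicin against 12.02 and 11.46 without it in the presence of LPS. FCGR1A measured 11.05 and 10.91 on the epirubicin arrays and 12.44 and 12.38 on the untreated arrays, and 9.34 and 9.71 after epirubicin and LPS and 10.58 and 10.93 after LPS alone. The epirubicin arrays were the lower ones in each stratum for both genes, and for FCGR1A they were lower still with LPS. A probe set assigned to FCGR1BP, a transcribed pseudogene copy of FCGR1A, also fell (−1.75, adjusted p = 0.0261), but the copies are so alike that its signal may be that of FCGR1A. Among 27 genes of the TLR pathway, CD14 and CD180 fell and none rose, with a list median of 0.05. The list did not lean to falls, since 16 members had positive and 11 negative values. Separated arrays were seen in 5 (18.5%) towards lower and in 5 (18.5%) towards higher values, against 6.69% and 6.5% of all probe sets. CD14, the LPS co-receptor, measured 13.99 and 13.60 after epirubicin, 14.80 and 14.86 in untreated cells, 11.04 and 11.08 after epirubicin with LPS and 12.88 and 13.26 after LPS alone, and it fell by 1.53 (standard error 0.24, adjusted p = 0.0313). CD180, a Toll-like receptor relative also known as RP105, measured 12.73 and 12.85 on the epirubicin arrays and 14.11 and 14.42 on the untreated arrays, and 7.13 and 6.54 after epirubicin and LPS and 9.31 and 9.22 after LPS alone. LPS lowered CD180 by 5.47 in the additive model, and epirubicin lowered it by 1.95 (standard error 0.24, adjusted p = 0.0172). CD209, the C-type lectin DC-SIGN, fell by 1.05 (standard error 0.16, adjusted p = 0.0272), with 9.50 and 9.21 with epirubicin against 10.39 and 10.46 without it in the absence of LPS, and 8.56 and 8.58 with epirubicin against 9.60 and 9.61 without it in the presence of LPS. It was the only 1 of 30 scavenger receptor and lectin genes that was called, although 8 of them (26.7%) had separated arrays towards lower values and 2 (6.67%) towards higher, against 6.69% and 6.5% of all probe sets. CD209 and FCER2 lie close together on chromosome 19 with 1 protein-coding gene between them, CLEC4G, whose change was −0.14 (adjusted p = 0.847).

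Further falls concerned surface and secreted proteins, picked here from the called genes. C1QC, a chain of the complement component C1q, averaged 7.04 on the nearly equal epirubicin arrays against 9.83 and 9.09 on the untreated arrays. It measured 7.53 and 8.93 after epirubicin with LPS against 10.60 and 11.07 after LPS alone. One array with both agents was at 8.93 and thus well above its duplicate, but still below the arrays with LPS alone. C1QC fell by 2.51 (standard error 0.31, adjusted p = 0.0172), and the other chains showed −1.09 for C1QB (adjusted p = 0.132) and −0.88 for C1QA (adjusted p = 0.282), both with separated arrays in each stratum. CPN2, the carrier subunit of carboxypeptidase N, which trims anaphylatoxins, fell by 2.58 (standard error 0.38, adjusted p = 0.0272). SLC11A1, also called NRAMP1, which pumps metal ions out of phagosomes, fell by 2.12 (standard error 0.32, adjusted p = 0.0272), and it measured 5.95 and 6.40 after epirubicin, 8.87 and 8.70 in untreated cells, 6.56 and 6.72 after epirubicin with LPS and 8.93 and 7.61 after LPS alone. SPP1, which encodes the secreted glycoprotein osteopontin, fell by 1.48 (standard error 0.18, adjusted p = 0.0171), with 16.50 and 16.64 on the epirubicin arrays and 17.78 and 17.79 on the untreated arrays, and 14.94 and 15.18 after epirubicin and LPS and 16.81 and 16.81 after LPS alone. IL18BP, the soluble inhibitor of IL-18, fell by 1.74 (standard error 0.30, adjusted p = 0.0470). CXCR5, the receptor of the B cell chemokine CXCL13, measured 5.12 and 5.70 after epirubicin, 7.15 and 6.64 in untreated cells, 6.56 and 6.19 after epirubicin with LPS and 9.03 and 8.55 after LPS alone and fell by 1.95 (standard error 0.27, adjusted p = 0.0210). Here the direction of the agents was opposite, since LPS raised CXCR5 by 1.43 (adjusted p = 0.00409) and the arrays with both agents lay below untreated cells. NTSR1, the neurotensin receptor, TSPAN4, a tetraspanin, TM4SF19, a protein of the tetraspan family, and SERPINB10, a protease inhibitor of bone marrow, fell by 1.52, 1.98, 1.88 and 1.84. The probe set of TM4SF19-DYNLT2B, a readthrough transcript that overlaps TM4SF19, fell by 1.83 and is not independent of it.

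**Figure D3:**
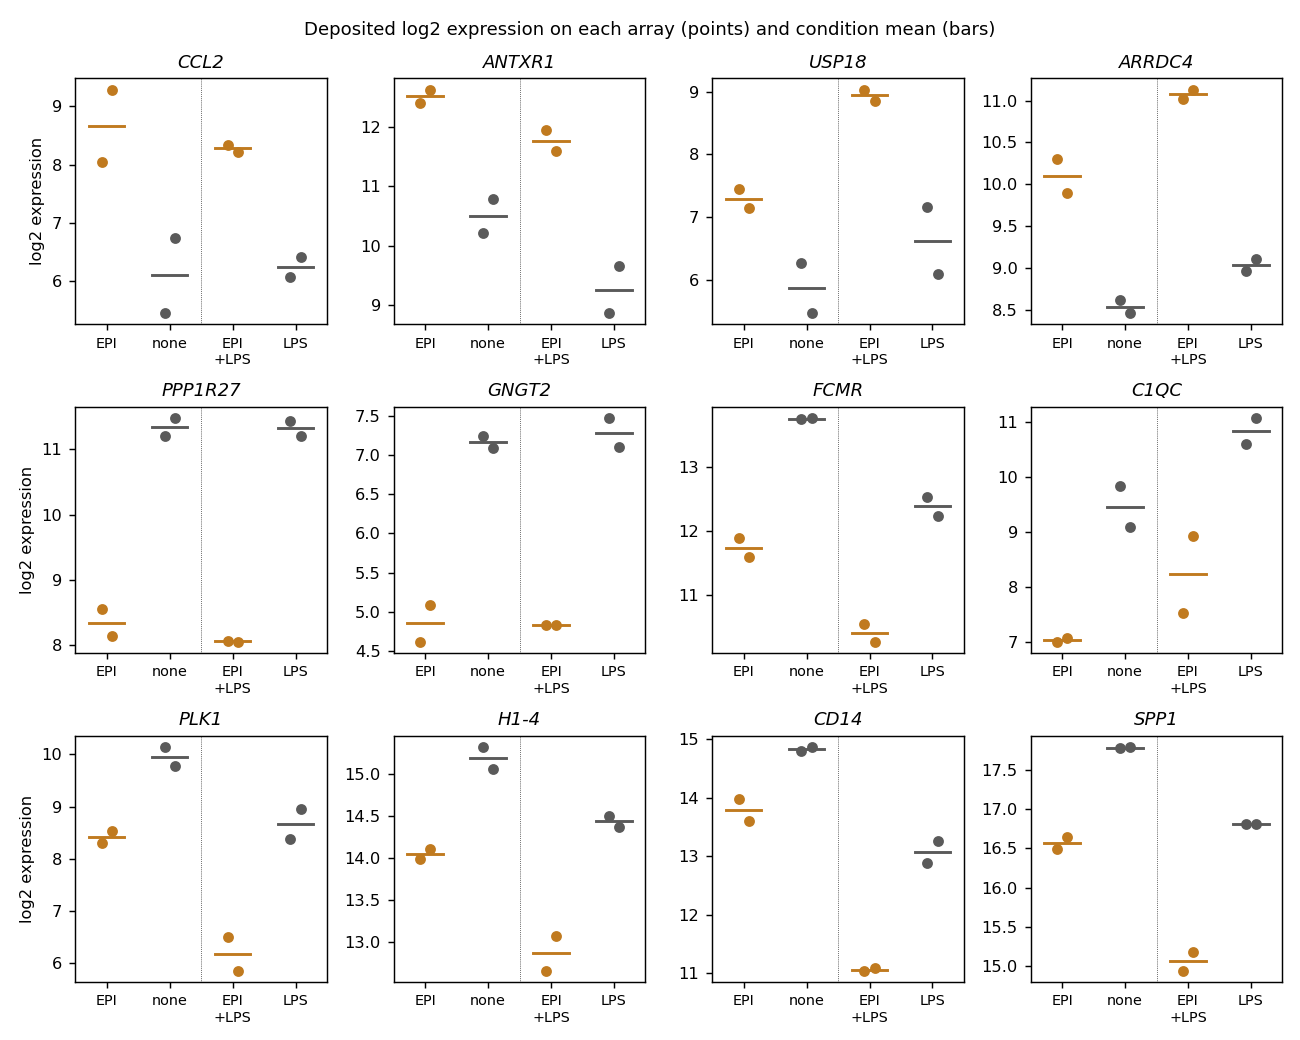
Points are the deposited log2 values of the 2 arrays of each condition and bars their means, for 4 genes that rose (top row) and 8 that fell, with epirubicin left of its control in each LPS stratum. In all 12 genes both epirubicin arrays lie on the same side of both control arrays in each stratum. Of the 8 that fell, all except C1QC have their lowest mean after epirubicin with LPS.

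PLK1, the Polo-like kinase that drives entry into mitosis, had values of 8.31 and 8.53 with epirubicin against 10.13 and 9.78 without it in the absence of LPS, and 6.50 and 5.85 with epirubicin against 8.38 and 8.96 without it in the presence of LPS. The arrays did not overlap in either stratum, and the fall was 2.01 (standard error 0.27, adjusted p = 0.0206). PLK1 was the only called gene of 40 genes of G2 and mitosis, whose median was −0.15, and 5 of them (12.5%) had separated arrays towards lower values and 0 towards higher, against 6.69% and 6.5% of all probe sets. After PLK1, the smallest p-values of this list belonged to HJURP, a chaperone of the centromeric histone, with −0.70 (adjusted p = 0.126), and to KIF20A, a mitotic kinesin, with −0.76 (adjusted p = 0.153). Outside the list, FAM83D, a spindle protein, fell by 1.61 and NEK3, a NIMA-related kinase, by 1.39. Replication genes pointed the other way. Of 54 genes of DNA replication and S phase none was called, but 44 had positive values and 10 had separated arrays towards higher values (18.5% of the list and 6.5% of all probe sets). Their median was 0.62 in the absence and 0.04 in the presence of LPS. RFC2, a subunit of the clamp loader, had 1.12 (adjusted p = 0.0618) and ASF1B, a histone chaperone, 1.23 (adjusted p = 0.0958).

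Histone genes were looked at as a group after their values had been seen. H1-4 and H1-3 encode linker histones, which bind the DNA between nucleosomes, and H2BC14 encodes a core histone H2B. H1-4 measured 13.99 and 14.10 on the epirubicin arrays and 15.31 and 15.06 on the untreated arrays, and 12.66 and 13.07 after epirubicin and LPS and 14.50 and 14.37 after LPS alone, and fell by 1.36 (standard error 0.19, adjusted p = 0.0210). H1-3 measured 9.60 and 9.03 after epirubicin, 10.69 and 10.08 in untreated cells, 7.41 and 7.34 after epirubicin with LPS and 9.53 and 9.52 after LPS alone, and fell by 1.61 (standard error 0.27, adjusted p = 0.0415). H2BC14 measured 12.80 and 12.79 with epirubicin against 14.15 and 13.46 without it in the absence of LPS, and 11.33 and 11.80 with epirubicin against 13.47 and 13.34 without it in the presence of LPS, and fell by 1.43 (standard error 0.24, adjusted p = 0.0470). Of 61 replication-dependent histone genes measured, these 3 fell and none rose (0.292% and 0.158% of all probe sets). Negative values were seen in 48 of the 61, and the median was −0.17. It was −0.11 without and −0.295 with LPS. The 9 H3 genes had a median of 0.26 without and −0.52 with LPS, and the other histone classes had negative medians in both strata. Separated arrays towards lower values were seen in 15 of the 61 and towards higher values in 2, against 6.69% and 6.5% of all probe sets. H1-5 had −1.13 (adjusted p = 0.0685), and H1-2 was at 0.01 (adjusted p = 0.996). Histone genes resemble each other closely, and signal may be shared between copies.

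Signalling proteins that fell included ETV5, a transcription factor induced through ERK, with 11.19 and 11.28 after epirubicin, 12.37 and 12.28 in untreated cells, 10.55 and 10.11 after epirubicin with LPS and 13.36 and 12.99 after LPS alone. Its fall of 1.97 (standard error 0.34, adjusted p = 0.0470) was the only call among 21 genes of ERK feedback, whose median was −0.04. SAMSN1, an adaptor that restrains B cell signalling, measured 4.59 and 4.95 on the epirubicin arrays and 5.78 and 6.35 on the untreated arrays, and 5.33 and 5.43 after epirubicin and LPS and 8.42 and 7.92 after LPS alone and fell by 2.04 (standard error 0.32, adjusted p = 0.0313). Adaptors and regulators of immune receptor signalling, named here after their values were seen, were LAT2 (−1.28), which links Fc receptors to calcium signalling, VAV3 (−1.15), GRK6 (−1.12), a kinase that desensitises G protein-coupled receptors, and PRR5 (−1.27), a part of the mTORC2 complex. NAV3, a microtubule-binding protein, fell by 2.01 (standard error 0.20, adjusted p = 0.0116) although LPS raised it by 2.94. PLPPR3, a phospholipid phosphatase-related protein, and MLC1, a membrane protein of astrocytes, fell by 1.98 and 1.95. TNNT1, a troponin of slow muscle, had the smallest fall, and BMP8B, a bone morphogenetic protein, fell by 1.77. Also lower were MIDN (−1.04), AIG1 (−1.06), SHISA7 (−1.07), MICAL1, an oxidase of actin (−1.25), C9orf72, a regulator of autophagy (−1.29), MMD (−1.32), UBE2D4, a ubiquitin-conjugating enzyme (−1.35), GRAMD4 (−1.43), GIPC3 (−1.47) and AHNAK2 (−1.59). PADI2, which converts arginine to citrulline in proteins including histones, fell by 1.86 (standard error 0.23, adjusted p = 0.0179).

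Metabolic genes changed in both directions. Of 25 genes of cholesterol and fatty acid synthesis, FADS2, a desaturase of polyunsaturated fatty acids, fell by 1.68 (standard error 0.26, adjusted p = 0.0313), and none rose. The remaining members did not pass, but 13 of the 25 (52.0%, against 6.69% of all probe sets) had separated arrays towards lower values, none towards higher, and the median was −0.46. FASN, the fatty acid synthase, had −0.90, and SCD, the stearoyl-CoA desaturase, −0.88 (adjusted p = 0.0648 for both). FADS2 itself measured 9.10 and 9.51 with epirubicin against 10.90 and 11.22 without it in the absence of LPS, and 7.92 and 9.11 with epirubicin against 10.05 and 10.20 without it in the presence of LPS. GPAT3, which starts triglyceride assembly from glycerol-3-phosphate, rose by 1.44 (standard error 0.19, adjusted p = 0.0209). Among 13 genes of metallothioneins and zinc transport, 12 had negative values, the median was −0.80, and MT2A fell by 1.40 (standard error 0.23, adjusted p = 0.0415). MT2A, a small protein that binds zinc and copper, measured 13.00 and 12.96 after epirubicin, 14.27 and 13.68 in untreated cells, 14.32 and 14.40 after epirubicin with LPS and 16.39 and 15.94 after LPS alone. The list median was −0.42 without and −1.37 with LPS, LPS raised MT2A by 1.79 on average, and metallothionein probe sets may share signal because the genes are alike. Nucleoside metabolism, grouped after the values were seen, held UPP1, uridine phosphorylase, which rose by 1.95 (standard error 0.29, adjusted p = 0.0272), with 8.56 and 9.30 on the epirubicin arrays and 7.02 and 7.89 on the untreated arrays, and 11.91 and 12.25 after epirubicin and LPS and 9.55 and 9.76 after LPS alone. ADA, adenosine deaminase, fell by 1.22, SLC29A1, the nucleoside transporter ENT1, by 1.30, and NME4, a mitochondrial nucleoside diphosphate kinase, by 1.46 (adjusted p = 0.0401, 0.0299 and 0.0212). GSTM3 and GSTM4, glutathione transferases of 1 gene cluster, fell by 1.36 and 1.27, and their relative GSTM2 had −1.05 (adjusted p = 0.0593). PYGL, glycogen phosphorylase, fell by 1.11, and ISYNA1, which makes inositol phosphate, rose by 1.34. Further rises were SMOX, spermine oxidase (1.25), PAPSS2, which supplies activated sulfate (1.14), SPHK1, sphingosine kinase (1.01), and GPX3, the secreted glutathione peroxidase (1.08).

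The largest rises were those of CCL2 and ANTXR1. CCL2, the chemokine that recruits monocytes, measured 8.05 and 9.29 with epirubicin against 5.45 and 6.74 without it in the absence of LPS, and 8.34 and 8.23 with epirubicin against 6.07 and 6.41 without it in the presence of LPS. Its duplicates differed by more than 1 log2 unit in the absence of LPS, yet the groups stayed apart, and CCL2 rose by 2.31 (standard error 0.34, adjusted p = 0.0272, 95% interval 1.54 to 3.08). It was the only called gene among 27 chemokines, whose median was −0.11. ANTXR1, a receptor of anthrax toxin that binds collagen, measured 12.40 and 12.63 after epirubicin, 10.21 and 10.79 in untreated cells, 11.95 and 11.59 after epirubicin with LPS and 8.87 and 9.65 after LPS alone and rose by 2.26 (standard error 0.24, adjusted p = 0.0134). TNFSF13B, the B cell survival factor BAFF, was the only 1 of 31 cytokine genes that was called, with a rise of 1.76 (standard error 0.25, adjusted p = 0.0250) and values of 8.77 and 9.29 on the epirubicin arrays and 7.22 and 7.57 on the untreated arrays, and 10.78 and 9.94 after epirubicin and LPS and 8.77 and 8.18 after LPS alone. USP18, an interferon-induced protease that removes ISG15 and dampens interferon signalling, measured 7.45 and 7.14 with epirubicin against 6.26 and 5.47 without it in the absence of LPS, and 9.03 and 8.86 with epirubicin against 7.16 and 6.09 without it in the presence of LPS. It rose by 1.87 (standard error 0.31, adjusted p = 0.0393), as the only 1 of 47 interferon-stimulated genes that was called. Of that list 37 had positive values, 12 had separated arrays towards higher values (25.5% against 6.5% of all probe sets) and 2 towards lower, and the median was 0.48 (0.14 without and 0.65 with LPS). XAF1, an interferon-induced promoter of apoptosis, had 1.40 (adjusted p = 0.101) and RSAD2, the antiviral enzyme viperin, 1.14 (adjusted p = 0.0958).

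Other rises concerned the cell surface, matrix and transcription. ARRDC4, an arrestin-like adaptor that curbs glucose uptake, measured 10.30 and 9.89 after epirubicin, 8.61 and 8.46 in untreated cells, 11.02 and 11.13 after epirubicin with LPS and 8.97 and 9.10 after LPS alone and rose by 1.80 (standard error 0.19, adjusted p = 0.0116), and its call was kept in 7 of the 8 fits that left out an array. SULF2, which removes sulfate groups from heparan sulfate, and OLFML3, a secreted matrix protein, rose by 1.67 and 1.61 (adjusted p = 0.0209 and 0.0116). CLDN1, a claudin of tight junctions, measured 4.64 and 4.14 on the epirubicin arrays and 3.10 and 2.90 on the untreated arrays, and 8.12 and 8.31 after epirubicin and LPS and 5.76 and 6.32 after LPS alone. In the absence of LPS all of its values were below the upper quartile of the background probe sets, and its overall rise was 1.78 (standard error 0.24, adjusted p = 0.0206). The other 18 tight junction genes measured were not called. EMP2, a tetraspan membrane protein, rose by 1.53 on top of an LPS effect of 4.55, and SERINC5, a membrane protein that lowers HIV infectivity, by 1.43. SDC2, a heparan sulfate proteoglycan, and CD9, a tetraspanin, rose by 0.99 and 0.96, with SDC2 at 14.69 and 14.81 with epirubicin against 13.70 and 13.78 without it in the absence of LPS, and 14.47 and 14.62 with epirubicin against 13.54 and 13.62 without it in the presence of LPS. BARX1, a homeobox factor, rose by 1.98 (standard error 0.23, adjusted p = 0.0171), and KLF5, a zinc finger factor that LPS raised by 4.50, by 1.43 (standard error 0.21, adjusted p = 0.0272). CTSV, a lysosomal cysteine protease, and SYT11, which controls vesicle traffic, rose by 1.85 and 1.63 (adjusted p = 0.0319 and 0.0483). Further rises were PRKAR1B, a regulatory subunit of protein kinase A (1.29), TMEM38B, a cation channel of the endoplasmic reticulum (1.28), CNRIP1, which binds cannabinoid receptor 1 (1.27), NEMP1, a protein of the nuclear envelope (1.26), and EHD2, an ATPase of caveolae (1.21). Of the 5 called probe sets without a symbol, 4 were higher and 1 was lower.

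**Figure D4:**
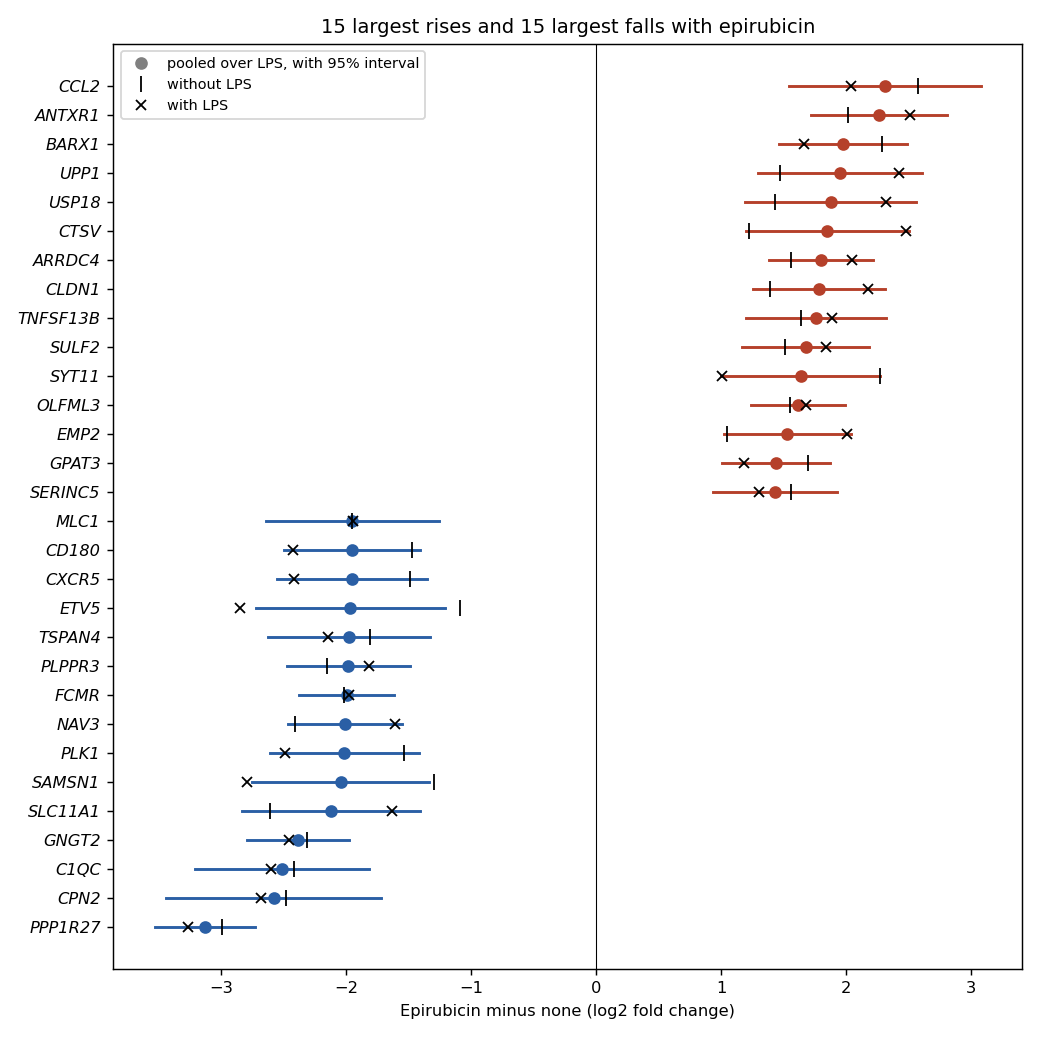
Circles with lines are log2 fold changes of epirubicin over none with their 95% intervals for the 15 largest rises and 15 largest falls, bars mark the value without LPS and crosses that with LPS. Rises run from 1.43 for SERINC5 to 2.31 for CCL2 and falls from −1.95 for MLC1 to −3.13 for PPP1R27, and ETV5, SAMSN1 and SYT11 show the widest gaps between strata.

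The lists of the DNA damage response and of stress pathways held no called gene, which does not speak for genes outside them. None of 32 p53 targets, genes that p53 switches on after DNA damage, was called. Their median was 0.16, and SESN2, a stress-induced regulator of mTORC1, had the smallest p-value with 1.36 (adjusted p = 0.0786). None of 29 genes of double-strand break signalling and repair was called either, with a median of 0.04. Among 15 genes of topoisomerases and anthracycline handling, TOP1, which encodes topoisomerase I, had 0.58 (adjusted p = 0.151) and CBR4, a carbonyl reductase, 1.09 (adjusted p = 0.0847). The lists of BCL2 family, NF-κB, immediate early, unfolded protein, NRF2, ribosome biogenesis, LXR, activin and histone-modifying genes and of 11 widely used reference genes held no called gene, with medians between −0.11 and 0.19. In the lysosome and phagosome list SLC11A1 was the only call of 33 genes, in complement C1QC of 22, and in the inflammasome IL18BP of 20, where 16 members had negative values and the median was −0.32. Unlike SLC11A1, 21 of the 33 lysosome and phagosome genes had positive values. Separated arrays towards higher values were seen in 7 of the 33 (21.2%) and towards lower values in 2 (6.06%), against 6.5% and 6.69% of all probe sets. In complement they were seen in 0 of 22 towards higher and in 5 (22.7%) towards lower values. In the inflammasome they were seen in 1 of 20 (5%) towards higher and in 6 (30%) towards lower values. With the prior variance that follows the expression level the number of calls over all probe sets was larger, so that absence of a call here is no measure of absence of change.

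**Figure D5:**
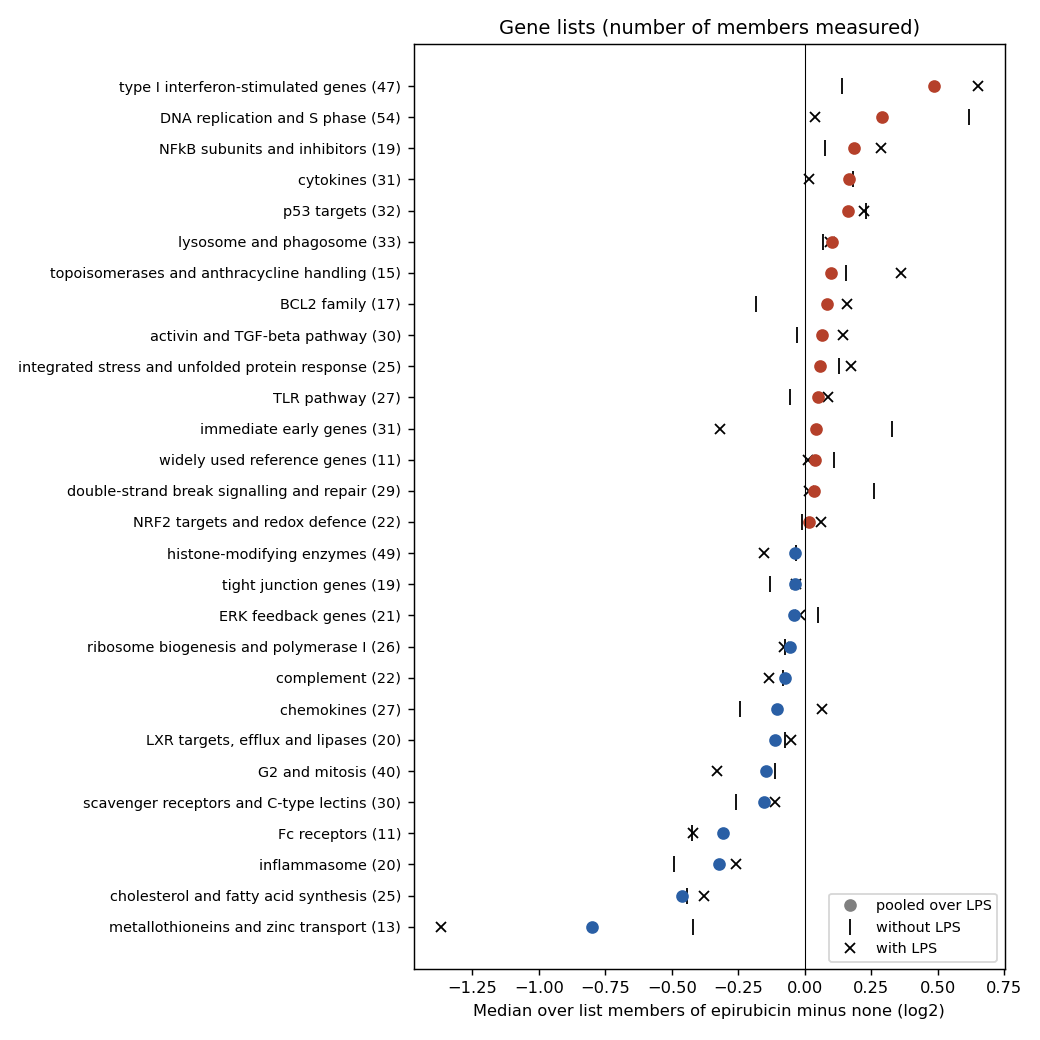
Circles give the median log2 fold change of epirubicin over none across the measured members of each list, bars the median without LPS and crosses that with LPS. Metallothioneins (−0.80) and cholesterol and fatty acid synthesis (−0.46) have the lowest medians and interferon-stimulated genes the highest (0.48), and S phase genes stand at 0.04 with LPS and 0.62 without it.

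Of the genes looked up because the article names them for its arrays, CD14 and CD209 were called, and IL10 (lower) and IL1RN (higher) met the study's own threshold without passing the adjusted one. NLRP3, the sensor of the inflammasome, measured 10.41 and 10.62 with epirubicin against 11.12 and 11.04 without it in the absence of LPS, and 11.35 and 11.15 with epirubicin against 12.05 and 11.99 without it in the presence of LPS. The arrays were apart in both strata, and the difference was −0.67 (standard error 0.16, adjusted p = 0.117). TLR2 had −0.99 (adjusted p = 0.102) and TLR4 0.96 (adjusted p = 0.0958), both with separated arrays. MYD88, the adaptor of these receptors, had 0.53 (adjusted p = 0.249) and TLR1 −0.42 (adjusted p = 0.444), with −0.78 with LPS and −0.06 without it. IL10, an anti-inflammatory cytokine, measured 4.67 and 4.63 on the epirubicin arrays and 5.02 and 6.28 on the untreated arrays, and 7.58 and 8.40 after epirubicin and LPS and 10.00 and 10.35 after LPS alone, a difference of −1.60 (standard error 0.35, adjusted p = 0.0958). IL1RN, the antagonist of the IL-1 receptor, had 1.75 (standard error 0.43, adjusted p = 0.121) and its arrays overlapped in the absence of LPS, where the difference was 0.74 against 2.75 with LPS. IL1B had −0.11 (adjusted p = 0.903), a mean of values of opposite sign, −0.59 with LPS and 0.38 without it (for the interaction, adjusted p = 0.636 by limma). IL6 had −0.82 (adjusted p = 0.418), with −1.45 with LPS and −0.18 without it. The histone-modifying enzymes KDM4A, KAT2A and KAT6A had −0.48, −0.61 and 0.51 (adjusted p = 0.248, 0.480 and 0.277). For KAT2A the difference was −1.37 with LPS and 0.15 without it (for the interaction, adjusted p = 0.596 by limma).

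The called genes had similar medians with and without LPS. The median of the 33 rises was 1.41 with LPS and 1.40 without it, that of the 61 falls was −1.56 with LPS and −1.44 without it, and 79 of the 94 differed by at least 1 log2 unit in both strata. These medians describe genes that were chosen on the same arrays. The additive fit has no interaction term, so a difference between strata enlarges the residual spread and makes a call less likely. The values of the called genes here therefore cannot show that effects hold regardless of LPS. The difference between the strata was tested as an interaction, which only FSTL3, an inhibitor of activin, passed over all probe sets (0.00479%), and FSTL3, which was below the upper quartile of the background probe sets on all 4 arrays without LPS, is not among the called genes. Of the 94 called probe sets, 10 (10.6%) had an unadjusted interaction p of at most 0.05, against 7.38% of all probe sets, and none of the 94 had an adjusted interaction p of at most 0.05. ETV5 came first among them, with −2.85 with LPS and −1.09 without it (unadjusted p = 0.00124 by limma, adjusted p = 0.520).

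Because the strata share no arrays, the effect in one can be read in genes chosen in the other. In the 4 arrays with LPS, fitted alone, 251 probe sets were higher (1.2%) and 264 lower (1.26%) at the study's threshold, and in the 4 arrays without LPS 232 were higher (1.11%) and 260 lower (1.24%). The 251 that were higher with LPS had a median of 0.33 without LPS, and 180 of them (71.7%) were positive there, against 49.6% of all probe sets. The 264 that were lower with LPS had a median of −0.41 without it, and 197 (74.6%) were negative against 50.4%. Chosen without LPS, the 232 that were higher had a median of 0.33 with LPS and the 260 that were lower one of −0.45, with 72.8% and 78.5% on the same side. In the stratum in which they were chosen, the medians of these 4 groups were 1.28, −1.35, 1.24 and −1.32. Across all probe sets, which are not independent replicates, the effects of the 2 strata correlated at r = 0.243.

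Of the 94 called probe sets, 45 also had an LPS term at an adjusted p of at most 0.05 by limma. This was so for 4292 of all probe sets (20.5%). Values of some of these called genes can be set side by side. DDIT4L, an inhibitor of mTOR signalling, measured 12.56 and 12.34 after epirubicin, 13.91 and 13.66 in untreated cells, 6.17 and 6.49 after epirubicin with LPS and 7.62 and 7.50 after LPS alone. LPS reduced it by 6.17 and epirubicin by 1.29, at nearly the same size with and without LPS (−1.23 and −1.34). SLCO2B1, an organic anion transporter, fell by 1.10 with epirubicin and by 2.08 with LPS, and THRA, the thyroid hormone receptor, by 1.23 and 1.58. ADA measured 6.99 and 6.42 on the epirubicin arrays and 7.93 and 7.64 on the untreated arrays, and 9.82 and 10.02 after epirubicin and LPS and 11.47 and 11.08 after LPS alone, so that it fell with epirubicin while LPS raised it by 3.35. MT2A, CXCR5, NAV3 and SAMSN1 likewise fell with epirubicin and rose with LPS, and ANTXR1, BARX1 and GPAT3 rose with epirubicin and fell with LPS (by 0.99, 1.19 and 0.72). These LPS terms come from the same 8 arrays.

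Called genes were not spread evenly over the expression range. Split into 5 equal groups by mean expression, 0 of the 4179 lowest probe sets were called, and of the 4179 highest 11 were higher (0.263%) and 30 lower (0.718%). Of the genes that fell, 8 had epirubicin means below 6 in both strata, among them GNGT2, FAM83D and SAMSN1, and there background bounds the size of a fall. Of the probe sets that rose, 5 had means without epirubicin below 6 in both strata, namely CTSV, GPAT3, PRKAR1B, CNRIP1 and 1 without a symbol, and the size of their rise is bounded in the same way. All 8 values of CNRIP1 were below the upper quartile of the background probe sets, as were those of SHISA7, C9orf72 and FAM83D, which fell. Of the genes that fell, 4 had all condition means below 6, namely SHISA7, C9orf72, FAM83D and SERPINB10. By gene length in RefSeq, more falls lay in the 3 shorter of 5 groups than in the 2 longer ones. From the shortest to the longest group 11, 19, 16, 8 and 6 genes fell and 5, 4, 8, 6 and 6 rose, and the median length was 17643 bases in genes that fell and 29713 in genes that rose against 25903 in all. Among genes with a condition mean of at least 6, 0.818% of the shortest and 0.307% of the longest group fell. By promoter GC content 14, 10, 8, 5 and 14 genes fell from the lowest to the highest group, 0.491% at both ends, and 82% of the called genes with a symbol had a promoter in the table. No test was run on these shares.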

How the data were processed

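Clariom S HT arrays of 8 samples of PMA-differentiated THP-1 cells were analysed. The authors deposited 1 log2 expression value per probe set and array, made in Transcriptome Analysis Console by SST-RMA per the methods, while the submitters' processing notes list RMA; no version is stated. These steps correct background, normalise the arrays to each other and summarise probes. How far they compress differences near background was not tested. Of 24351 rows, 20893 transcript cluster probe sets were tested, and 2903 control and 555 unmapped rows were left out. Symbols came from the platform annotation through RefSeq (17705 probe sets with 1 symbol, 3188 without), and each listed gene was read from its brightest probe set on average.

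The model had an epirubicin and an additive LPS term and was fitted in limma 3.58.1 (R 4.3.3) with a constant prior variance and 5 residual degrees of freedom, and p-values were two-sided and adjusted by Benjamini-Hochberg over all probe sets. Standard errors are moderated. Each LPS stratum was also fitted alone (4 arrays), and the interaction was tested on 4 condition means. Pearson's r was 0.986 to 0.987 for duplicates, against 0.948 to 0.984 between conditions. Scripts were tested on simulated data. Genes named by rule were the 15 largest rises and falls, at most 4 genes per list, by smallest p, the 5 called genes with the largest interaction and genes the article names; other called genes were named after their values were seen, and 1 called gene is not reported here. The members and lists were chosen with earlier results of these data known. Promoters and gene lengths came from RefSeq tables (GRCh38.p14). Alternatives covered the prior variance, the model terms, normalisation, a level minimum, thresholds and leaving out each array.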

Additional observations from a re-analysis of the deposited data

Results flagged for a closer look

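The effect of epirubicin on FSTL3, an inhibitor of activin, differed between cells with and without LPS. FSTL3 measured 4.57 and 5.07 after epirubicin, 4.71 and 4.93 in untreated cells, 12.18 and 12.58 after epirubicin with LPS and 7.44 and 6.94 after LPS alone. All 4 arrays without LPS were below 5.93, the upper quartile of the background probe sets, so that a difference there would be hard to see. The difference was 5.19 with LPS and 0.00 without it, an interaction of 5.19 (unadjusted p = 1.39e-06, adjusted p = 0.029 by limma), the only one of 20893 (0.00479%) that passed the adjusted threshold. It did not pass whenever an array was left out, when 0 probe sets passed.

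Among the 94 called genes, 10 had an interaction at an unadjusted p of at most 0.05 and none passed after adjustment (adjusted p from 0.52 to 0.645), against 7.38% of all probe sets at that unadjusted p. The change was larger with LPS for 7 of them. The called genes were chosen by a fit without an interaction term, which favours similar effects in both strata. The interaction, the effect with LPS minus that without it, was −1.76 for ETV5 (unadjusted p = 0.00124), −1.5 for SAMSN1, −1.08 for H1-3, −0.97 for CD14 and −0.95 for CD180, all of which fell further with LPS. It was 1.25 for CTSV and 0.96 for EMP2, which rose further with LPS. For SYT11, which rose more without LPS, it was −1.26, and for GRAMD4 and NAV3, which fell more without LPS, 0.89 and 0.8. All 10 except ETV5, CTSV and SYT11 also had an LPS term at an adjusted p of at most 0.05.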

How the results depend on the processing

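The additive model gave 33 genes higher and 61 lower. With a prior variance that follows the level there were 330 and 400 (331 and 401 with a robust prior as well), of which 303 and 381 (305 and 382) had separated arrays in both strata. Restricting the test to probe sets with a condition mean of at least 6 gave 172 and 193, and an adjusted p of at most 0.10 gave 127 and 150, with the same numbers separated. Without an LPS term 0 were higher and 2 lower, also when separated arrays were required, and 84 and 86 met the study's threshold. The interaction was called in 45 probe sets under either prior with trend, and in 0 whichever array was left out. Leaving out 1 array gave 0 to 8 higher and 3 to 25 lower, also among separated calls, and 318 to 445 probe sets at the study's threshold with LPS, against 515 with all arrays. A robust prior, 4 condition means, quantile normalisation and a median shift gave 86, 100, 101 and 92 calls and kept 86, 81, 92 and 91 of the 94, and testing the unmapped rows as well changed no call. None of the 94 changed sign in any of these settings that tested it. A change of prior variance or model terms, or leaving out an array, could not reverse a sign. In all 94 the arrays are separated the same way in both strata. The cause of these differences was not tested.

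With the duplicate number as a replicate block, 20 were higher and 36 lower, with the same numbers separated, and 53 of the 94 calls were kept. The numbers name duplicates only: deviations of same-numbered arrays from their condition means correlated at −0.009 to 0.021. With 2 arrays per condition, precision is limited, and near background, where probe set medians lay between 3.91 and 4.10, the size of a fall is bounded.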
